A study of Rattus norvegicus with 18 samples.

Results

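Leukocyte and major histocompatibility complex (MHC) class II genes were described across 18 libraries of rat intestine. The genes were named by Ensembl ID and chromosome, with earlier results of these data known. Of the 7 IDs given, 6 were found among the 30562 genes of the count table, each on its stated chromosome. They are Ptprc, Cd8a, Cd68, Cd74, RT1-Da and RT1-Ba, and all 6 passed the filter on low counts. Cd4, the remaining gene, is not analysed here. The animals were wild type Sprague-Dawley rats, an outbred stock, in 3 groups of 6: rats given a single 10 Gy dose of X-rays and then Changbing Formula (irradiated plus formula), rats given the 10 Gy dose alone (irradiated), and untreated rats (control). Sequencing was of poly(A) RNA from whole tissue. The labels call the tissue intestine only, and the segment, the rats' sex and age, the dose of the formula and the time after irradiation are not given in the sources used here. All 18 libraries carry the same batch label.

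MHC class II molecules hold fragments of ingested proteins at the cell surface, where CD4 T cells read them. Dendritic cells, macrophages and B cells make them constantly, and gut epithelial cells can be induced to make them by interferon gamma. Each molecule pairs an alpha with a beta chain, and the chains assemble on the invariant chain encoded by Cd74, which guides them to the compartment where fragments are loaded. RT1 is the MHC of the rat, RT1-Da encodes the alpha chain of its D (DR-type) molecule, and RT1-Ba that of its B (DQ-type) molecule. Transcription of all of these genes depends on the co-activator CIITA, which acts through promoter elements called the X and Y boxes. The other genes mark cells rather than this pathway: Ptprc encodes CD45, the tyrosine phosphatase on all nucleated blood cells, Cd8a encodes a co-receptor chain of cytotoxic T cells and of many intraepithelial lymphocytes, and Cd68 encodes a lysosomal glycoprotein abundant in macrophages. The gut wall holds such cells scattered through the mucosa and gathered in lymphoid follicles.

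The starts of the class II genes are shown because their levels moved together. Each window runs 5′ to 3′ on the gene's strand, from 250 bases before to 50 bases after the start annotated by RefSeq on GRCr8, a later build than the mRatBN7.2 used for the counts. Capitals mark matches on either strand to ATTGG (the Y box core), AGNNACNGA (an X box core) and GAGGAA (the core bound by PU.1, a myeloid and B cell factor). No match overlapped a match to another motif in these windows.
Cd74, chr18:56526956-56527255, forward strand: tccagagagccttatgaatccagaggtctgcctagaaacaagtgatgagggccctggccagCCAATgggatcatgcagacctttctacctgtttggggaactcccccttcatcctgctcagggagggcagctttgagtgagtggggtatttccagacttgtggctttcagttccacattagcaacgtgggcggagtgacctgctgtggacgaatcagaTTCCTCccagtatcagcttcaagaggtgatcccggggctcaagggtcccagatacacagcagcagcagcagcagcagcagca
RT1-Da, chr20:4515165-4515464, forward strand: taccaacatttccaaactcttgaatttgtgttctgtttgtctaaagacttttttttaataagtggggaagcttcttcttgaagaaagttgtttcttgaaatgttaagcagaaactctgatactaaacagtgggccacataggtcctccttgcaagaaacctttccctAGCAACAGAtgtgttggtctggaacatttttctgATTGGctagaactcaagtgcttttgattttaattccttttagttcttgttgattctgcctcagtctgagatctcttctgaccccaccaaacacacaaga
RT1-Ba, chr20:4576807-4577106, forward strand: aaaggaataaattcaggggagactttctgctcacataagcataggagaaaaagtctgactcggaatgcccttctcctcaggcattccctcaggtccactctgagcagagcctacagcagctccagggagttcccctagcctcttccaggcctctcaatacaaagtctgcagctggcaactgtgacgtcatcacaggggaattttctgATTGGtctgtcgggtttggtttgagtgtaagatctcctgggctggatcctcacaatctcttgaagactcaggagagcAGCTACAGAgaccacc

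All 3 windows held the Y box core, as did 37.5% of the 33469 promoter windows of the same length. It began at -49 from the start in RT1-Da and at -43 in RT1-Ba, on the gene's strand in both, and at -189 in Cd74 on the opposite strand. In RT1-Da an X box core began at -83, upstream of the Y box core. An X box core 15 to 45 bases upstream of a Y box core, on the gene's strand, stood in 74 of the 33469 windows, or 0.221%. Of the 6 genes described here only the RT1-Da window held it. That spacing was chosen after the matches were seen, so the low share lends no support to the RT1-Da match. The RT1-Ba window held a match to the X box letters at position 35 after the start, and the Cd74 window held no match to them. Only exact matches were counted, so a window without one may still hold an X box. Upstream of its Y box core, the RT1-Ba window reads ggcaactgt, and the Cd74 window holds agcaacgtg. Both resemble the X box letters without matching them. An X box core alone was present in 18.1% of all windows and the PU.1 core in 27.6%. In Cd74 the PU.1 core began at -32 on the opposite strand, in Ptprc at -163 on the gene's strand, and Cd68 held it at -27 and at 5 after the start. The letters were not limited to class II genes: Cd8a held a Y box core at -149 and an X box core at position 30, and Cd68 held Y box cores at -144 and -4. These matches describe the letters only.

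On mRatBN7.2, Ptprc (ENSRNOG00000000655) lies on chromosome 13 from 49596193 to 49708692 (reverse strand), and Cd8a (ENSRNOG00000007178) on chromosome 4 from 103365804 to 103370040 (forward). Cd68 (ENSRNOG00000037563) lies on chromosome 10 from 54381815 to 54383697 (reverse), and Cd74 (ENSRNOG00000018735) on chromosome 18 from 54256778 to 54266003 (forward). RT1-Da (ENSRNOG00000032844), at 4512911 to 4518455, and RT1-Ba (ENSRNOG00000000451), at 4575134 to 4579744, lie 56678 bases apart on the forward strand of chromosome 20. No exon of the 6 genes overlaps an exon of another annotated gene, on either strand. The span of each gene in the table resembled that of the RefSeq gene of the same symbol on the same chromosome of GRCr8, for example 112500 against 112094 bases for Ptprc and 4237 against 4238 bases for Cd8a. The largest gap was in RT1-Da, with 5545 against 4995 bases.

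Library totals lay between 33598572 and 48398184 counts. The counts of single libraries ran from 49 to 2566 for Cd8a and from 3546 to 196305 for Cd74, the least and the most deeply counted of the 6 genes by their lowest library. Control 2 and irradiated 4 stood apart from the other 16 libraries across many genes: 8.4% of 14316 genes in control 2 and 9.2% in irradiated 4 were above 4 times their median over those 16. Results that rest on these libraries are given with and without them. Whether the tissue pieces differed in makeup was not tested, since the table pairs none of its 30562 IDs with symbols and the 7 marker lists for epithelium, muscle and blood cell types (77 symbols) could not be looked up.

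Levels are given as CPM, each count as a share of its library, in the usual per-million unit, with library sizes scaled by the TMM factors that even out composition between libraries. The pan-leukocyte gene Ptprc had a lowest level of 7.38, a median of 11.50 and a highest level of 223 CPM in irradiated plus formula libraries, 12.0, 17.9 and 908 CPM in irradiated libraries, and 10.4, 17.3 and 663 CPM in control libraries. The groups overlapped, and the spread was within groups. In 14 libraries Ptprc lay between 7.38 and 19.7 CPM, and 4 libraries lay far above: irradiated 4 at 908, control 2 at 663, irradiated plus formula 4 at 223 and irradiated 3 at 163 CPM. The highest library held 123 times the level of the lowest, the widest range of the 6 genes.

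Cd8a, the T cell co-receptor chain, had a lowest level of 1.305, a median of 2.44 and a highest level of 13.01 CPM in irradiated plus formula libraries, 1.58, 7.99 and 46.8 CPM in irradiated libraries, and 2.37, 4.37 and 36.3 CPM in control libraries. Irradiated 4 and control 2 were again highest, followed by irradiated 3 at 20.6, irradiated plus formula 4 at 13.01 and irradiated 1 at 12.9 CPM. All groups overlapped. The macrophage gene Cd68 varied least, with a lowest level of 3.20, a median of 4.23 and a highest level of 8.51 CPM in irradiated plus formula libraries, 4.14, 8.22 and 39.4 CPM in irradiated libraries, and 3.46, 4.50 and 16.9 CPM in control libraries. Its highest library, irradiated 4, held 12.3 times the level of the lowest, irradiated plus formula 5. Outside irradiated 4 and control 2, the highest Cd68 level was 9.76 CPM, in irradiated 5, a library that ranked 15th to 18th of 18 for the class II genes.

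Cd74, the invariant chain, was the most abundant of the 6 genes. It had a lowest level of 88.4, a median of 170 and a highest level of 1039 CPM in irradiated plus formula libraries, 159, 534 and 3582 CPM in irradiated libraries, and 199, 271 and 2967 CPM in control libraries. RT1-Da ranged from 47.4 over a median of 81.4 to 467 CPM in irradiated plus formula libraries, from 69.8 over 245 to 1599 CPM in irradiated libraries, and from 80.3 over 121 to 1172 CPM in control libraries. RT1-Ba ranged from 38.3 over a median of 79.2 to 361 CPM in irradiated plus formula libraries, from 37.1 over 191 to 1229 CPM in irradiated libraries, and from 60.0 over 89.4 to 795 CPM in control libraries. The same 5 libraries headed all 3 class II genes in the same order, namely irradiated 4, control 2, irradiated 1, irradiated plus formula 4 and irradiated 3. The irradiated group therefore held 3 high and 3 low libraries for these genes, and its medians fell in the gap between them.

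**Figure D1:**
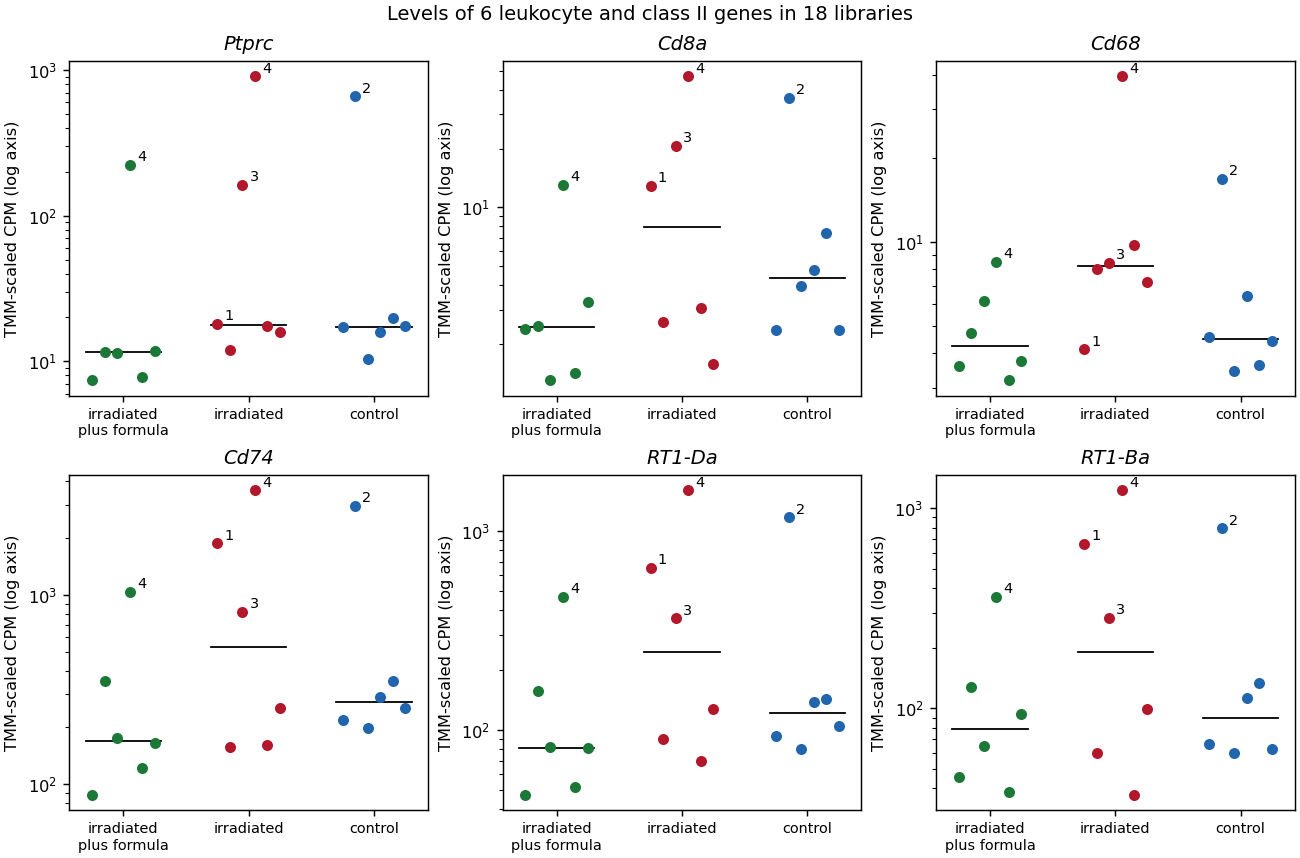
TMM-scaled CPM (log axis) of 6 genes in each of 18 libraries, with 6 points per group, a black line at the group median, and the replicate number beside control 2, irradiated 1, 3 and 4 and irradiated plus formula 4. Ptprc lay at 908 CPM in irradiated 4 and 663 CPM in control 2, while irradiated 1 was high for Cd74 (1884 CPM) but not for Ptprc (18.1 CPM).

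In both libraries that stood apart, Ptprc was raised most and Cd68 least. Set against the median of the other 16 libraries, Ptprc was 57.3 times higher in irradiated 4 and 41.9 times higher in control 2, and Cd68 was 8.49 times higher in irradiated 4 and 3.63 times higher in control 2. The class II genes were between 15.2 and 16.2 times higher in irradiated 4 and between 9.96 and 12.6 times higher in control 2, and Cd8a was 16.6 times higher in irradiated 4 and 12.8 times higher in control 2. All 6 genes in irradiated 4 and 5 of 6 in control 2 thus exceeded 4 times that median, where 9.2% and 8.4% of the 14316 genes did so. These are descriptions of single libraries, without a test. In bulk tissue, more cells of a type and more RNA per cell cannot be told apart.

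The remaining high libraries differed in which genes were high. Irradiated plus formula 4 resembled control 2 at a lower level, with Ptprc 14.1 times, Cd8a 4.60 times, Cd74 4.40 times and Cd68 1.83 times the median of the 16 libraries. Irradiated 3 had Ptprc at 10.3 times and Cd8a at 7.28 times that median, while the class II genes were between 3.45 and 3.68 times higher. Irradiated 1 showed another pattern: Cd74, RT1-Da and RT1-Ba were 7.97, 6.62 and 8.30 times the median and Cd8a 4.56 times, but Ptprc stood at 1.14 times and Cd68 at 0.892 times. The 4-fold mark was passed by 5 of 6 genes in irradiated plus formula 4, by 2 of 6 in irradiated 3 and by 4 of 6 in irradiated 1. Over all 14316 genes the share past that mark was 3.46% in irradiated plus formula 4, 3.23% in irradiated 3 and 2.91% in irradiated 1.

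**Figure D2:**
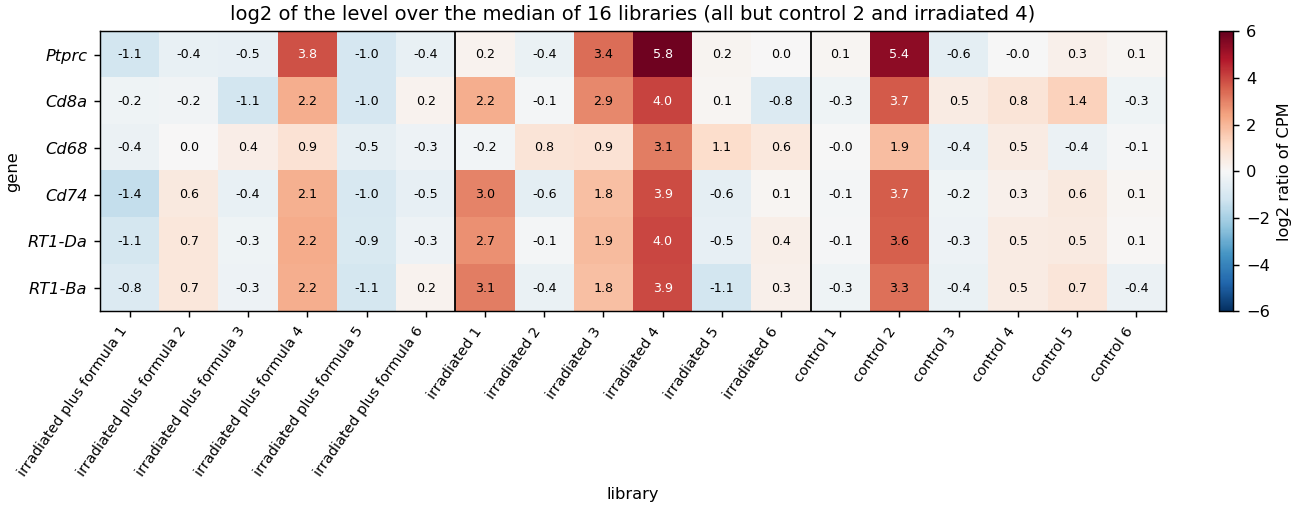
Log2 of the CPM of each gene (rows) in each library (columns, grouped by treatment) over the gene's median in the 16 libraries other than control 2 and irradiated 4, with the value printed in each cell. Ptprc stands out in irradiated 4 (57.3 times the median), and irradiated 1 is high in the class II rows with Ptprc at 1.14 times the median.

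Compared per kilobase of exon, the class II genes kept a fixed order: Cd74 was above RT1-Ba and RT1-Ba above RT1-Da in 18 of 18 libraries. In control libraries the medians were 118 CPM per kb for Cd74, 64.7 for RT1-Ba and 30.9 for RT1-Da, against 3.50 for Cd68, 3.15 for Cd8a and 1.23 for Ptprc. Ptprc was the lowest of the 6 genes per length in 14 libraries, and stood above both Cd8a and Cd68 in irradiated 4, control 2 and irradiated plus formula 4. The exon length used for Ptprc, 14025 bases, merges all annotated transcripts, so its level per kilobase is low relative to any shorter transcript.

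Ratios within a library do not depend on how libraries are scaled, and all ratios here are of levels per kilobase of exon. The ratio of RT1-Da to Cd74, per length, was nearly constant: its log2 averaged -1.87 ± 0.12 in irradiated plus formula, -1.91 ± 0.24 in irradiated and -2.03 ± 0.10 in control libraries (SD, n = 6 each), while Cd74 itself spanned 40.5-fold. The log2 ratio of RT1-Ba to RT1-Da averaged 1.29 ± 0.24 in irradiated plus formula, 1.07 ± 0.31 in irradiated and 1.07 ± 0.22 in control libraries (SD, n = 6 each). The ranges of the groups overlapped for both ratios. RT1-Ba reached 3.27 times RT1-Da in irradiated plus formula 6 and 1.51 times in irradiated 5. By contrast, the ratio of Cd68 to Ptprc ran from 0.278 in control 2 to 7.28 in irradiated 2, and its log2 averaged 1.64 ± 1.45 in irradiated plus formula, 1.20 ± 1.75 in irradiated and 1.03 ± 1.46 in control libraries (SD, n = 6 each). Per length, Cd74 stood at 632 times Ptprc in irradiated 1, against 183 times or less in every other library and 24 times in irradiated 4.

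The first comparison asked whether irradiation alone altered these genes. None of the 6 passed the test between irradiated and control libraries (edgeR's quasi-likelihood test, Benjamini-Hochberg adjusted p of 0.998 for each), where 0% of 16593 tested genes passed. At an unadjusted p below 0.05 there were 0 of 6 genes, against 1.93% of all tested genes, and none of the 6 passed with DESeq2 or limma-voom in any of the 3 comparisons. The fitted level was higher in irradiated libraries for 6 of 6 genes, with a median log2 fold change of 0.71, where 51.3% of all tested genes had a fitted value above 0 and the median was 0.01. Cd74 averaged 1142 ± 1366 CPM in irradiated against 714 ± 1105 CPM in control libraries (SD, n = 6 each), a log2 fold change of 0.68 (SE 0.91). Its 95% interval ran from 0.426-fold to 6.01-fold. Cd68 came nearest to the threshold, with 12.8 ± 13.2 CPM in irradiated against 6.56 ± 5.16 CPM in control libraries (SD, n = 6 each; log2 fold change 0.97, SE 0.52, edgeR adjusted p = 0.998). Without irradiated 4 alone, the fitted direction turned for Ptprc (log2 fold change -1.45), Cd8a (-0.23), Cd74 (-0.13) and RT1-Da (-0.15), and Cd68 and RT1-Ba stood at 0.19 and 0.15. Without control 2 alone, the log2 fold changes were instead larger, at 3.55 for Ptprc, 1.80 for Cd8a, 1.51 for Cd68, 2.12 for Cd74, 2.12 for RT1-Da and 2.18 for RT1-Ba, and 0 of 6 genes passed (edgeR adjusted p between 0.388 and 0.391).

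With control 2 and irradiated 4 both left out, again 0 of 6 genes passed between irradiated and control libraries, where 0% of 16567 tested genes passed. Cd68 then averaged 7.51 ± 2.098 CPM in irradiated against 4.50 ± 1.18 CPM in control libraries (SD, n = 5 each), with a 95% interval of 1.10-fold to 2.69-fold (log2 fold change 0.78, SE 0.30, edgeR adjusted p = 0.576). It was the 1 gene of 6 with an unadjusted p below 0.05 in that fit, where 7.93% of all tested genes had one. The class II genes kept a wide spread there, since irradiated 1 and irradiated 3 remained: Cd74 averaged 654 ± 740 CPM in irradiated against 263 ± 61.0 CPM in control libraries (SD, n = 5 each; log2 fold change 1.39, SE 0.75, edgeR adjusted p = 0.645).

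The second comparison asked what the formula altered in irradiated rats, and it shares the irradiated libraries with the first. None of the 6 genes passed between irradiated plus formula and irradiated libraries (edgeR adjusted p between 0.771 and 0.772), where 0% of 16593 tested genes passed. The fitted level was lower with the formula for 6 of 6 genes, with a median log2 fold change of -1.77, where 47.1% of all tested genes had a fitted value above 0 and the median was -0.02. Cd68 averaged 4.99 ± 2.02 CPM in irradiated plus formula and 12.8 ± 13.2 CPM in irradiated libraries (SD, n = 6 each), with a log2 fold change of -1.36 (SE 0.52) and a 95% interval of 0.181-fold to 0.837-fold before adjustment. It was the 1 gene of 6 with an unadjusted p below 0.05, where 5.59% of all tested genes had one. Without irradiated 4 alone its log2 fold change was -0.59, and without control 2 and irradiated 4 it was -0.60 (SE 0.29), with a 95% interval of 0.433-fold to 1.012-fold. Ptprc averaged 45.5 ± 87.0 CPM in irradiated plus formula and 189 ± 357 CPM in irradiated libraries (SD, n = 6 each; log2 fold change -2.06, SE 1.41), and Cd74 averaged 324 ± 362 CPM in irradiated plus formula and 1142 ± 1366 CPM in irradiated libraries (SD, n = 6 each; log2 fold change -1.82, SE 0.93). Without control 2 and irradiated 4 the log2 fold change of Ptprc was 0.03 (SE 0.95) and that of Cd74 was -1.04 (SE 0.71), and 0 of 6 genes passed, where 0% of 16567 did. Unadjusted p-values below 0.05 were found for 0 of 6 genes there and for 5.07% of all tested genes.

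Last, rats given both treatments were compared with controls, the same control libraries as in the first comparison. None of the 6 genes passed (edgeR adjusted p between 0.883 and 0.917), where 0.0121% of 16593 tested genes passed, and 0 of 6 had an unadjusted p below 0.05, against 5.71% of all tested genes. The fitted level was lower in irradiated plus formula libraries for 6 of 6 genes, with a median log2 fold change of -1.05, where 42% of tested genes had a fitted value above 0 and the median was -0.07. That direction rested on control 2. Without control 2 alone the log2 fold change was above 0 for 5 of the 6 genes, at 1.50 for Ptprc, 0.15 for Cd68, 0.30 for Cd74, 0.40 for RT1-Da and 0.49 for RT1-Ba, and it was -0.07 for Cd8a. Cd74 averaged 324 ± 362 CPM in 6 irradiated plus formula libraries and 263 ± 61.0 CPM in the 5 control libraries other than control 2 (SD). Without control 2 and irradiated 4, 0.0423% of 16567 tested genes and 0 of 6 of these genes passed. At an unadjusted p below 0.05 these were 9.69% and 0 of 6.

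For no gene of the 6 were any 2 groups free of overlap. Genes without overlap made up 0% (higher) and 0.00603% (lower) of the tested genes between irradiated and control, 0.0783% and 0.108% between irradiated plus formula and irradiated, and 0.488% and 0.344% between irradiated plus formula and control.

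**Figure D3:**
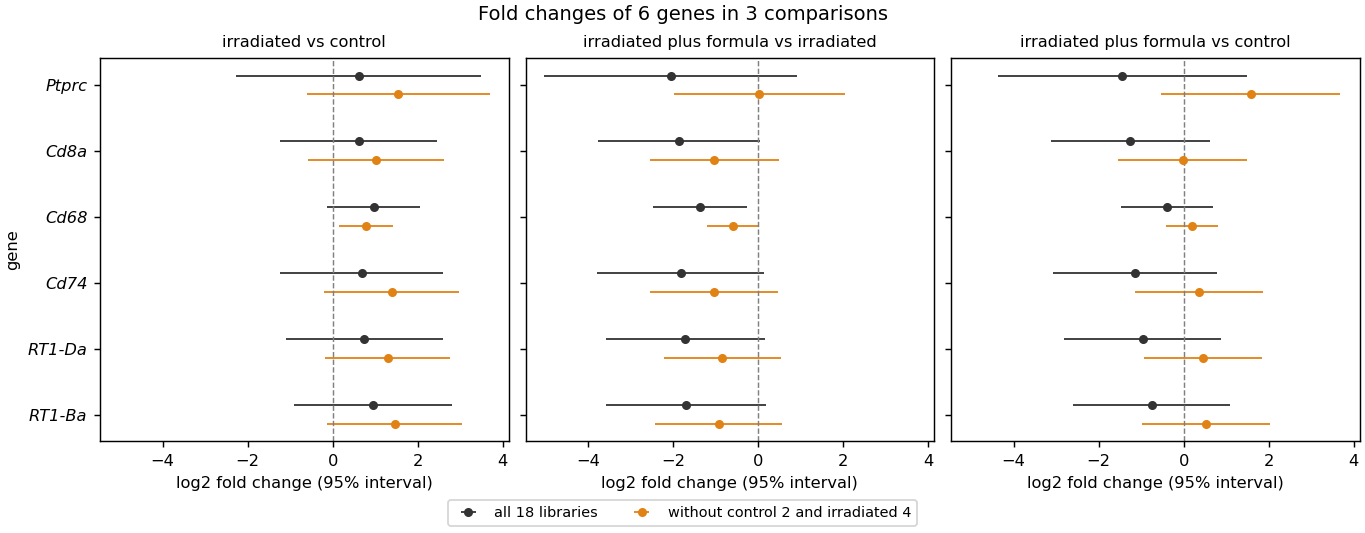
Log2 fold change of each gene with its approximate 95% interval in 3 comparisons (panels), from all 18 libraries (dark) and without control 2 and irradiated 4 (orange). For Ptprc the value with the formula against control is -1.45 from 18 libraries and 1.57 without those 2, and intervals of Cd68 are the narrowest.

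With the groups pooled and their means not removed, the 3 class II genes varied together from library to library. Over the 16 libraries without control 2 and irradiated 4, Cd74 and RT1-Da had a Pearson r of 0.991 and a Spearman rho of 0.956, Cd74 and RT1-Ba 0.962 and 0.924, and RT1-Da and RT1-Ba 0.973 and 0.932 on log2 CPM. Each had a two-sided permutation p of 1e-05, the smallest that 100000 permutations give (adjusted p = 5e-05 over 15 pairs). Without irradiated 1 and irradiated plus formula 4, the libraries farthest from the median of the first gene, r was still 0.981, 0.902 and 0.937. Cd8a followed the class II genes with r between 0.821 and 0.827 (adjusted permutation p = 0.000825) and rho between 0.576 and 0.629, and r was between 0.723 and 0.743 without irradiated 3 and irradiated plus formula 4.

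For Ptprc, r was 0.702 with Cd74 (adjusted permutation p = 0.016, rho 0.741) and 0.769 with Cd8a (adjusted permutation p = 0.00122, rho 0.624), and these were 0.614 and 0.501 without irradiated 3 and irradiated plus formula 4, where Ptprc lies apart from the other 14, so these relations rest partly on those libraries. Cd68 showed no relation to Cd8a or to the class II genes that passed, with r between 0.172 and 0.314 and adjusted permutation p between 0.297 and 0.528, and its r with Ptprc was 0.57 (adjusted permutation p = 0.0172, rho 0.559) and 0.373 without the same 2 libraries. Control 2 and irradiated 4, which were not used here, held the 2 highest levels of all 6 genes.

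**Figure D4:**
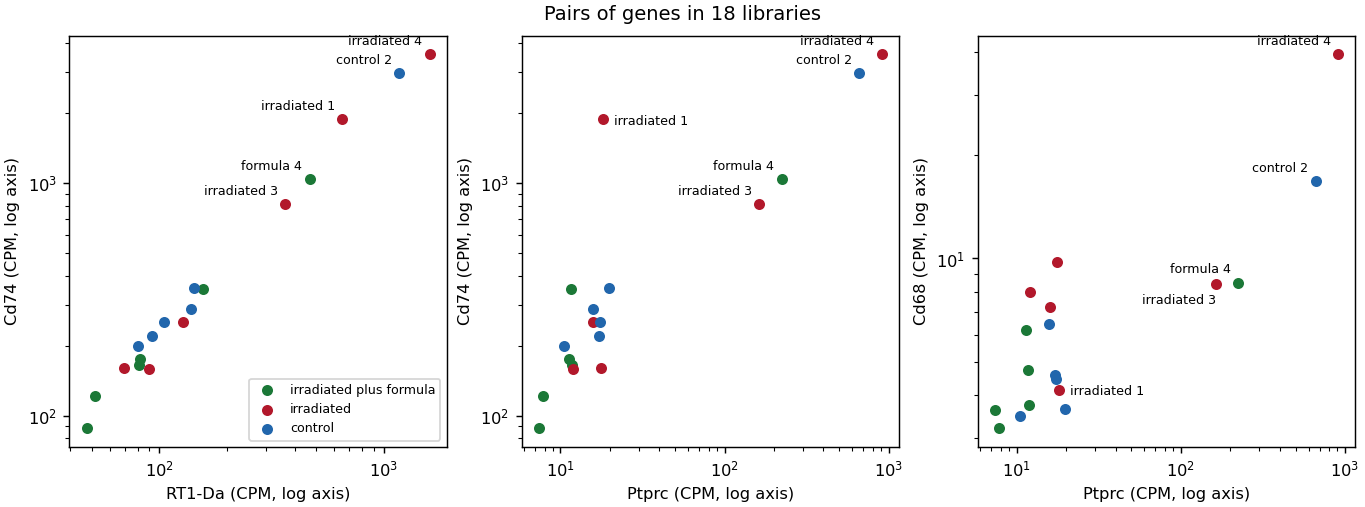
CPM (log axes) of Cd74 against RT1-Da, Cd74 against Ptprc and Cd68 against Ptprc, with 1 point per library coloured by group and 5 libraries named (formula 4 is irradiated plus formula 4). Cd74 and RT1-Da lie along a line, irradiated 1 leaves the trend of Cd74 with Ptprc (1884 against 18.1 CPM), and Cd68 spans the narrowest range.

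Ranked by Spearman rho over the same 16 libraries among 14318 other genes averaging 1 CPM or more, the class II genes were near one another. RT1-Da was the gene most like Cd74, and Cd74 the gene most like RT1-Da, and RT1-Ba was the 5th for Cd74 and the 3rd for RT1-Da. From Ptprc, Cd74 ranked 103rd and Cd68 513th, and from Cd68 the nearest of these genes was Ptprc, at rank 206. Outside the 6 genes, ENSRNOG00000050697, on chromosome 3 at 163224875 to 163235645, was most like Cd74 (rho 0.947), and the gene most like RT1-Ba was ENSRNOG00000033215, on chromosome 20 at 4548666 to 4558258 (rho 0.947). That gene lies between RT1-Da and RT1-Ba and stood at 646 CPM in control 2 and 1092 CPM in irradiated 4, against a median of 66.8 CPM in the other 16 libraries. The table does not pair either ID with a name.

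Genes near the class II alpha genes were high or low in the libraries that stood apart. Within 250 kb of RT1-Da or RT1-Ba, 24 further genes averaged 1 CPM or more, and 9 of them were above 4 times their 16-library median in both control 2 and irradiated 4, where 6.96% of 14319 genes were. Both such genes that lie between RT1-Da and RT1-Ba were among the 9, and 3 of the 9 were also above that mark in irradiated 1, where 4 of the 24 genes and 2.92% of the 14319 were. In irradiated 4, 6 of the 24 genes lay below 0.25 of their 16-library median, at 0.00341 to 0.11 times it, where 14.8% of all genes did, and in control 2 none of the 24 did, where 8.88% of all genes did. Within 250 kb of Cd8a, 1 of 9 genes was above 4 times its median in both control 2 and irradiated 4. Near Cd68 it was 2 of 25 and near Cd74 1 of 11, while no other gene near Ptprc reached 1 CPM. In irradiated 1 the 4-fold mark was passed by 3 of the 9 genes near Cd8a and by 0 near Cd68 or Cd74. Genes below 0.25 also lay near Cd8a, Cd68 and Cd74 in irradiated 4 (lowest 0.0801, 0.106 and 0.0282 times). In control 2 they lay near Cd68 and Cd74 (lowest 0.197 and 0.155 times). These counts and values are given without a test, and neighbours of 1 locus are not independent.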

How the data were processed

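Raw counts per gene were deposited by the authors; per the file headers, featureCounts 2.1.1 counted pairs with both ends aligned and not chimeric, against Ensembl release 110 of mRatBN7.2, with no option to count a pair once, to use strand or to keep multi-mapped reads. The submitters' processing notes also name FastQC, fastp, STAR and SAMtools. Between 66.9% and 74.6% of counts from 1 to below 40 in a library were even, where single reads would give about equal odd and even counts, so many pairs appear to be counted as 2. Exon lengths are those deposited with the counts. Per-sample columns without a sample numbered 0.

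Groups were taken from the titles; the free-text descriptions call all 18 rats untreated, against the titles and treatment fields. The model was edgeR 4.0.16 (R 4.3.3, quasi-likelihood, all 18 libraries, filterByExpr, TMM, no covariates), with Benjamini-Hochberg adjustment over 16593 genes and a threshold of 0.05. SEs are the log2 fold change over the root of its F statistic, so the 95% intervals are approximate. The 15 correlations (21 were planned with Cd4) took log2 CPM after adding a prior count (2). limma 3.58.1, DESeq2 1.42.0, other scalings and filters, 12-library fits, a replicate block and left-out libraries were alternatives. No pair of the 153 agreed within sampling noise (lowest median chi-square 6.36, where sampling of independent reads gives 0.455). All labels give 1 batch; that each library is a separate rat is implied, not stated, and otherwise the p-values measure technical spread.

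The genes, lists and tests were chosen with earlier results of these data known, and the 4-fold and 0.25 marks, the X to Y box spacing and the Cd74 to Ptprc ratio after their values were seen. Named were the 6 genes and the 2 unnamed IDs most like any of them.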

Additional observations from a re-analysis of the deposited data

Results flagged for a closer look

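Of 18 checks of a gene in a group of 6 libraries, 13 found 1 library far from the rest of its group, with a gap to its nearest neighbour above 0.625 of the group's range. A chance count of about 0.9 would hold only for independent checks of values without skew, in libraries not singled out beforehand. These conditions were not met. The genes move together and the same 3 libraries recur, so the checks are not independent. The gaps were taken on CPM without logs, where the levels were skewed. Control 2 and irradiated 4 had already been singled out across many genes. The 13 findings are therefore a description and were not set against chance.

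In irradiated plus formula libraries, replicate 4 stood apart for Ptprc (223.0 CPM), Cd8a (13.01 CPM), Cd74 (1039 CPM), RT1-Da (466.8 CPM) and RT1-Ba (361.0 CPM), and not for Cd68. In irradiated libraries, replicate 4 stood apart for Ptprc (908.2 CPM) and Cd68 (39.42 CPM). For Cd8a, Cd74, RT1-Da and RT1-Ba irradiated 4 was also highest, but irradiated 1 or 3 lay close enough below it that the gap was 0.475 to 0.618 of the range. In control libraries, replicate 2 stood apart for all 6 genes, at 663.4 CPM for Ptprc, 36.29 CPM for Cd8a, 16.87 CPM for Cd68, 2967 CPM for Cd74, 1172 CPM for RT1-Da and 794.8 CPM for RT1-Ba. The cause was not tested.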

How the results depend on the processing

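None of the 6 genes passed the threshold in any comparison under any alternative run (lowest adjusted p 0.388), and 470 of 486 fold changes kept their direction. The other 16 came from leaving out control 2, irradiated 4 or both. With both left out, log2 fold changes of irradiated plus formula against control were 1.57 for Ptprc, 0.19 for Cd68, 0.35 for Cd74, 0.45 for RT1-Da and 0.53 for RT1-Ba, and Ptprc stood at 0.029 against irradiated. With 1 library left out at a time, values against control with the formula ran from -3.63 to 1.499 for Ptprc, -0.61 to 0.15 for Cd68, -1.98 to 0.30 for Cd74, -1.79 to 0.40 for RT1-Da and -1.47 to 0.49 for RT1-Ba. Values of irradiated against control ran from -1.45 to 3.55 for Ptprc, -0.23 to 1.80 for Cd8a, 0.19 to 1.51 for Cd68, -0.13 to 2.12 for Cd74, -0.15 to 2.12 for RT1-Da and 0.15 to 2.18 for RT1-Ba, lowest without irradiated 4 and highest without control 2 for all 6 genes, and Ptprc with the formula against irradiated ran from -4.24 to 0.0069.

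Over the whole table, between irradiated plus formula and control, 2 genes passed; the count was 47 by DESeq2, 499 by limma-voom with quality weights and 6 in the 12-library fit, leaving out control 2 and irradiated 4 gave 7, the replicate block 1, and leaving out 1 library gave 2 to 5 (5 without control 2, 5 without irradiated 4, 4 without irradiated 1). DESeq2 gave 8 between irradiated plus formula and irradiated, against 0. In the limma-voom run the quality weights were lowest for irradiated 4 (0.1193) and control 2 (0.1783), and highest for irradiated plus formula 1 (3.746). With the replicate block the log2 fold change of Cd74 was 0.75 between irradiated and control, and the block changed no call of the 6 genes. Deviations of same-numbered libraries from their group means correlated above 0.1 in 5 of 18 pairs, with values from -0.514 to 0.606. Differently numbered libraries were not set beside them, so whether the numbers mark a pairing was not decided. The cause of these shifts was not tested. In the fit of all 18 libraries, with SEs of 0.52 to 1.41 on the log2 scale, a 2-fold difference lay within about 2 SEs for every one of the 6 genes. Without control 2 and irradiated 4 the SEs of Cd68 were 0.29 to 0.30, so this did not hold for Cd68 there.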
